A study of Mus musculus with 18 samples.

Results

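MYC occupancy of the Myc and Pvt1 locus was followed in peak lists from 9 chromatin immunoprecipitation libraries of mouse liver tumours. Myc encodes the basic helix-loop-helix transcription factor itself, and Pvt1 is a long noncoding RNA gene that lies next to it on chromosome 15. Every listed peak was taken whose summit fell between 100 kb before the Myc span and 100 kb beyond the far end of Pvt1, a window of 474.9 kb (chromosome 15, 61885341 to 62360215, mm10). This gave 8 of 10376 peaks, and they formed 1 of the 4775 regions into which overlapping peaks of the 9 lists were merged. The presence of a peak and the place of its summit chose these members, so their number, fold and genotype are given as a description with no test.

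The tumours came from FVB mice with a tetracycline-controlled MYC transgene (TRE-MYC) driven by the liver activator line LAP-tta, and were collected at death after doxycycline water was withdrawn. All 3 genotypes carried both transgenes. In Homo tumours (Arid1afl/fl with Alb-cre, about 100 days old) both alleles of Arid1a, a subunit gene of the SWI/SNF chromatin remodelling complex, were floxed and the Cre recombinase was driven by the albumin promoter, which is active in hepatocytes. Het tumours (Arid1afl/+ with Alb-cre, about 70 days old) had 1 floxed allele with the same Cre, and WT tumours (Arid1aflfl without Alb-cre, about 55 days old) had floxed alleles and no Cre. For every genotype 3 libraries were made with the MYC antibody and 3 from input. Age differed between the genotypes and Cre was absent from WT, so genotype and age, and in comparisons with WT also Cre, cannot be told apart. No label says that the libraries of a genotype came from separate animals.

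MYC binds DNA as a dimer with MAX, typically at E-box sequences in the promoters of active genes. In the mouse, Myc and Pvt1 are transcribed in the same direction with Pvt1 downstream, and both loci are known as sites of retroviral insertion and of plasmacytoma translocation. In human cancers the genes are often gained together, PVT1 RNA has been linked to the stability of the MYC protein, and in human breast cancer cells the PVT1 promoter was shown to compete with the MYC promoter for shared enhancers. The antibody detects MYC protein, so the transgenic and the native protein were not distinguished.

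The MYC signal in the window stood at one place, the start of Pvt1. A peak was listed there in 2 of 3 Homo, 3 of 3 Het and 3 of 3 WT libraries, the exception being Homo replicate 2. The merged region covered 504 bp (chromosome 15, 62037759 to 62038262, mm10), and the stretch common to all 8 peaks covered 221 bp (62037918 to 62038138). This common stretch reached from 68 bp before the start coordinate of the Pvt1 span (gene ID 19296, span 62037986 to 62260215) to 152 bp inside it. The annotation table used here gives spans without exons or strand, so the position is stated against the span alone.

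All 8 summits lay just inside Pvt1. The summit was 96 bp inside the start coordinate in Homo replicate 1 and 73 bp inside in Homo replicate 3. In Het replicates 1, 2 and 3 it was 24, 59 and 34 bp inside, and in WT replicates 1, 2 and 3 it was 56, 42 and 37 bp inside. The summits thus spread over 72 bp, less than the width of any of the peaks, which ran from 226 to 490 bp. Both Homo summits lay further inside the gene than every Het and WT summit. Among the 25 regions listed in all of these 8 libraries, 4 (16%), Pvt1 included, had both Homo summits on one side of all the others. This ordering was thus not particular to Pvt1.

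**Figure D1:**
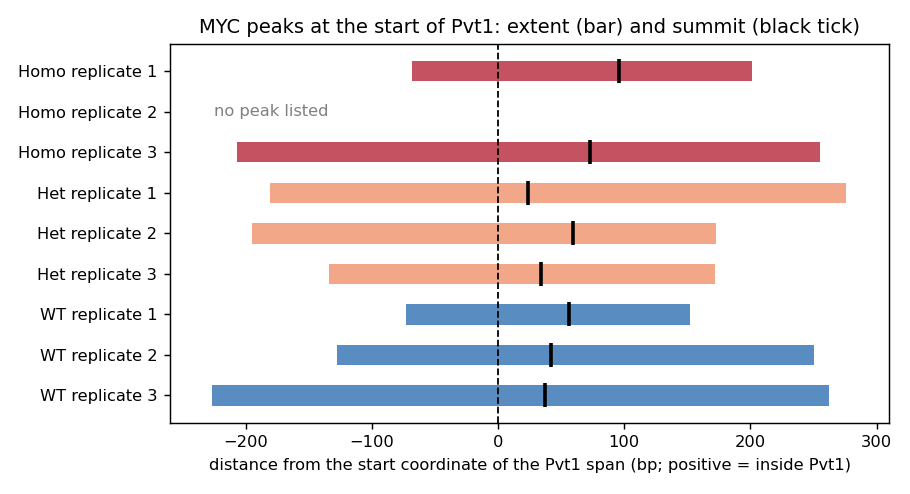
Extent of each listed MYC peak (bar) and its summit (black tick) by library, as the distance in bp from the start coordinate of the Pvt1 span (dashed line). All 8 bars cross the line and all 8 summits lie between 24 and 96 bp inside the gene; Homo replicate 2 has no peak.

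At Myc itself no peak was listed. The Myc span (gene ID 17869, 61985341 to 61990361) and 1 kb on either side held no summit in any of the 9 libraries. The Pvt1 summits lay 47.6 to 47.7 kb beyond the end of Myc. No other peak fell in the rest of the 222230 bp of Pvt1, and none lay at the pseudogenes Macroh2a3, inside the Pvt1 span, and Gm18788, before Myc. An unlisted site is one that did not reach the limit of the authors' caller in that library, which does not show that MYC was absent from it.

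The Pvt1 peak was isolated over more than 1 Mb, in lists that were sparse throughout. Over all chromosomes they held 0.0187 (Homo replicate 2) to 0.687 (Het replicate 2) peaks per Mb, and 1.58 in WT replicate 3. Wide gaps are thus not particular to this locus. On the Myc side the nearest listed peak outside the window was 1.16 Mb from Myc, in Het replicates 1 and 2 and WT replicates 2 and 3. It lay inside Lratd2, 2.74 kb from the nearer end of that gene, with folds of 4.40 to 8.76. On the Pvt1 side the nearest was 1.74 Mb beyond Pvt1, inside Cyrib, in WT replicate 3 alone (fold 4.95). In Homo libraries, whose lists were short, the nearest peaks were at least 2.90 Mb away on the Myc side and 17.1 Mb on the Pvt1 side. Short lists of the other genotypes had far neighbours too, at 2.94 Mb on the Myc side in Het replicate 3 and at 25.1 and 17.7 Mb on the Myc and Pvt1 sides in WT replicate 1. Of 9 neighbouring protein-coding genes (Lratd2, Trib1, Nsmce2, Sqle, Gsdmc, Cyrib, Asap1, Adcy8 and Efr3a), 0 had a peak within 1 kb of an end in any library. For comparison, 3264 of 21887 protein-coding genes (14.9%) had one in at least 1 library, and nothing is read from a list of 9 genes. Since no peak lay between the window's edge and 1.16 Mb, the width of the flanks did not decide the members.

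**Figure D2:**
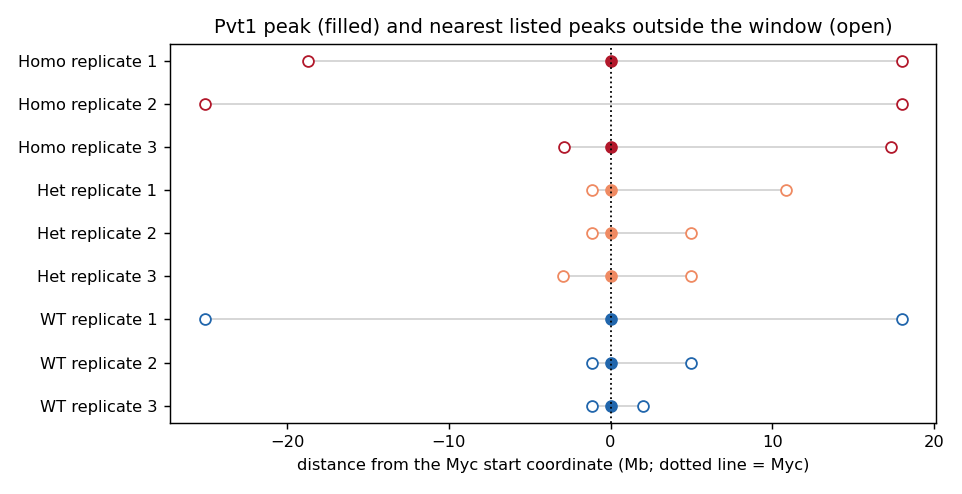
Position of the Pvt1 peak (filled) and of the nearest listed peaks outside the window (open) in each library, as the distance in Mb from the Myc start coordinate (dotted line). The Pvt1 peak is the lone listed site over a stretch that is narrowest in WT replicate 3, with neighbours 1.16 Mb before Myc and 1.74 Mb beyond Pvt1.

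The authors' fold over background at the Pvt1 summit was 7.57 in Homo replicate 1 and 10.9 in Homo replicate 3. It was 10.4, 6.14 and 8.23 in Het replicates 1, 2 and 3, and 8.07, 16.2 and 14.7 in WT replicates 1, 2 and 3. WT replicates 2 and 3 held the highest folds, while WT replicate 1 lay inside the range of the other genotypes, so the groups overlapped. The authors' −log10 q was 11.9 and 20.6 in the Homo libraries, 25.9, 13.9 and 15.98 in Het, and 10.3, 44.2 and 46.5 in WT, each in replicate order. Every one of these lay far above the lowest value listed in its own library, which ranged from 2.05 to 3.30 over these 8 lists.

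The fold is read within its own list, since background and list length differ between libraries. The Pvt1 peak ranked 40 of 112 in Homo replicate 1 and 27 of 303 in Homo replicate 3. It ranked 167 of 1713, 1314 of 1869 and 96 of 378 in Het replicates 1, 2 and 3. In WT replicates 1, 2 and 3 it ranked 54 of 92, 46 of 1567 and 148 of 4291. It therefore exceeded 64.9% and 91.4% of the other peaks in the Homo lists, 90.2%, 29.7% and 74.5% in Het, and 41.8%, 97.1% and 96.6% in WT. It lay below its list's median in 2 libraries, Het replicate 2 and WT replicate 1.

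**Figure D3:**
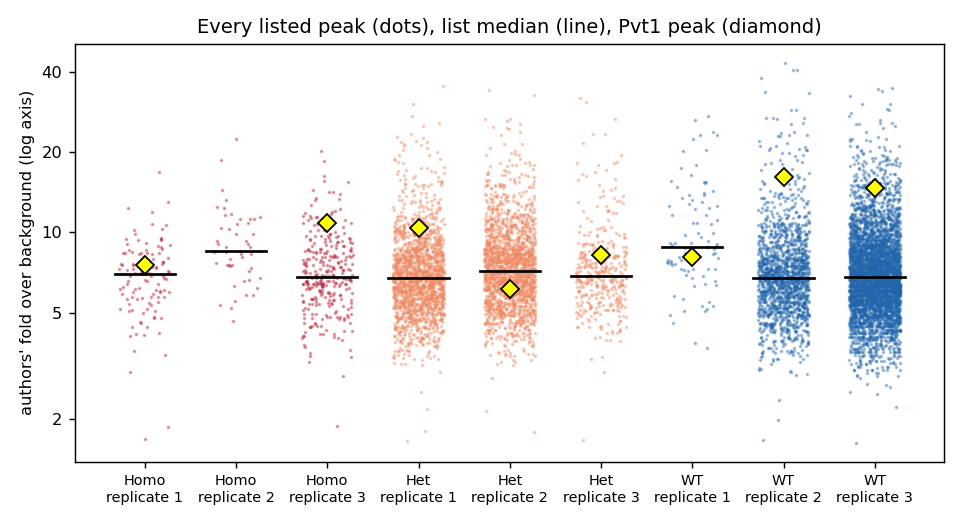
Fold over background of every listed peak (dots, log axis) by library, with the list median (line) and the Pvt1 peak (diamond). The diamond lies above the median in 6 libraries and below it in Het replicate 2 (fold 6.14) and WT replicate 1 (fold 8.07).

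The fold and p of each peak were solved together for the whole number of MYC reads at the summit and for the local input background. At Pvt1 this gave 62 and 113 reads in Homo replicates 1 and 3. It gave 142, 77 and 69 reads in Het replicates 1, 2 and 3, and 76, 111 and 114 reads in WT replicates 1, 2 and 3. The MYC libraries themselves ranged from 7.80 to 15.2 reads per kb over all 9, so raw reads carry the difference in depth. These reads per kb are an estimate, from each list's lowest background, scaling ratio and shortest peak.

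Scaled to the library-wide level, taken as the lowest background in each list, the Pvt1 summit stood 30.1-fold to 53.1-fold high in the 8 libraries. It stood 35.5-fold above that level in Homo replicate 1 (exact Poisson 95% interval 27.2 to 45.5) and 46.2-fold in Homo replicate 3 (38.1 to 55.6). In Het replicates 1, 2 and 3 it stood 48.0-fold (40.4 to 56.5), 49.6-fold (39.2 to 62.0) and 41.8-fold (32.6 to 53.0) above it. In WT replicates 1, 2 and 3 the enrichment was 30.1-fold (23.7 to 37.7), 44.2-fold (36.3 to 53.2) and 53.1-fold (43.8 to 63.8). The mean was 40.9 ± 7.57 in Homo (SD, n = 2), 46.5 ± 4.10 in Het (SD, n = 3) and 42.5 ± 11.6 in WT (SD, n = 3). The means lay closer together than the spread within WT, whose libraries held both the lowest and the highest value, and all groups overlapped. Homo replicate 2, with no listed peak, has no value, so the Homo mean covers only libraries that list the peak. The intervals cover counting error only, and reads that are copies of 1 fragment would make them too narrow. In Homo replicate 1 the library-wide level rests on 2 peaks. In tumour tissue a larger share of cells with MYC at the site and more MYC per cell cannot be told apart.

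The scaled enrichment and the authors' fold ordered the libraries differently. Het replicate 2 had the lowest fold and the second highest enrichment. Its local background at the summit was 6.93 times the lowest in its list, beside 2.76 for the median of its peaks. In the other libraries the same ratio was 3.52 and 2.92 in Homo replicates 1 and 3, 3.54 and 3.93 in Het replicates 1 and 3, and 2.46, 1.91 and 2.75 in WT replicates 1, 2 and 3. Every WT ratio was below every Homo and Het ratio, which held in 2 (8%) of the 25 regions listed in the same 8 libraries, Pvt1 included. The backgrounds themselves overlapped, at 3 input reads in WT replicate 3 and in Het replicates 1 and 3, and 2 in Homo replicate 3. The lowest background, by which they are divided, was 1.09 in WT replicate 3 and 0.846 and 0.763 in Het replicates 1 and 3. No interval was computed for these ratios, which rest on few reads. Over whole lists the median ratio was 2.98, 1.78 and 2.92 in Homo, 2.36, 2.76 and 2.62 in Het and 1.45, 1.91 and 1.96 in WT, so 2 of 3 Homo lists and all Het lists were above every WT list. Across the 8 peaks the authors' fold varied 2.64-fold and the enrichment 1.76-fold.

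**Figure D4:**
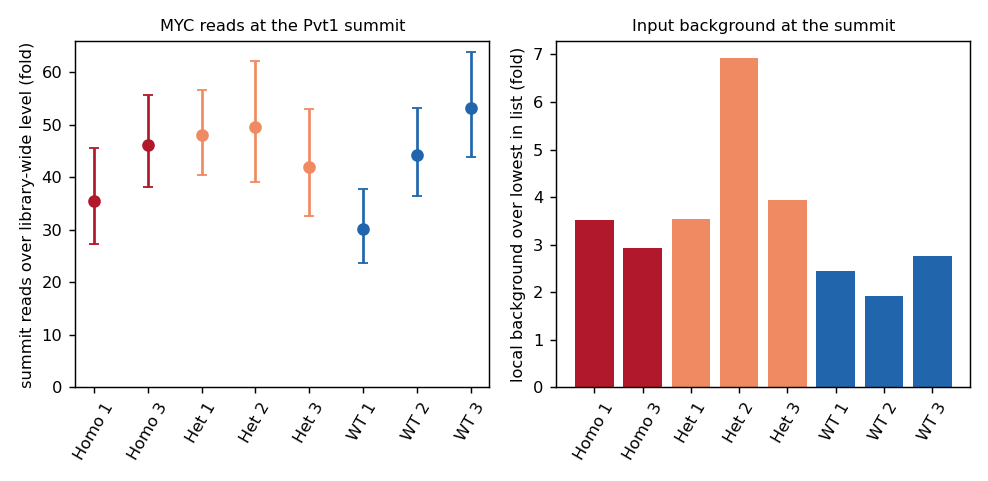
Left, MYC reads at the Pvt1 summit over the library-wide level, with exact Poisson 95% intervals (bars). Right, local input background at the summit over the lowest background in the same list. Enrichment overlaps between genotypes (30.1 to 53.1 over the 8 libraries), while the background ratio is highest in Het replicate 2 (6.93). The backgrounds behind the ratios are 1.69 (WT replicate 1) to 5 input reads (Het replicate 2).

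Homo replicate 2, the one library without the Pvt1 peak, had the shortest list, with 51 peaks. Its weakest listed peak had a −log10 p of 9.08, higher than the weakest in each of the other 8 lists (5.27 to 8.23). The peak threshold is not known, so 9.08 is not taken as the limit of the caller. With a background equal to the lowest of its list, 23 reads at the summit (15.5-fold) would have reached that p. With the background ratios seen at Pvt1 in 7 of the other libraries, it would have taken 31 to 41 reads (20.8-fold to 27.5-fold), and with that of Het replicate 2 it would have taken 54 reads (36.3-fold). The lowest enrichment among the 8 listed peaks was 30.1-fold. This library and WT replicate 1 also stood apart in the share of their peaks within 1 kb of a protein-coding gene end, 17.6% and 15.2%, beside 43.9% to 64.4% in the other 7. Leaving out these 2 libraries removes the only one without the Pvt1 peak, so its listing in 7 of 7 then follows by construction. Whether the missing peak is tied to genotype, depth or library quality was not tested.

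A peak in so many libraries was uncommon. Regions with a peak in at least 8 of 9 libraries numbered 46 (0.963% of 4775), and those with a peak in at least 2 libraries of each genotype numbered 96 (2.01%). The Pvt1 region was among both. It was not among the 1052 regions (22%) with a peak in at least 2 WT and 0 Homo libraries, a count that fell to 32 without WT replicate 2 and 29 without WT replicate 3. Nor was it among the 864 (18.1%) with a peak in at least 2 Het and 0 Homo libraries, which fell to 131 without Het replicate 1 and 135 without Het replicate 2. No region had a peak in at least 2 Homo libraries and 0 in WT or in Het (0% each), except that 1 region did for Het without Het replicate 1. Between Het and WT, 29 regions (0.607%) were listed in at least 2 Het and 0 WT libraries and 197 (4.13%) the other way round. The first count was 0 without Het replicate 1 or 2, 48 without WT replicate 2 and 297 without WT replicate 3, and the second was 2 without WT replicate 2, 0 without WT replicate 3, and 341 or 361 without Het replicate 1 or 2. The members were chosen on presence, so nothing is read from their place among these counts.

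Pvt1 was one of few long noncoding RNA genes with a recurrent peak. Of 12727 such genes, 541 (4.25%) had a peak within 1 kb of an end in at least 1 library and 6 (0.0471%) in at least 8, beside 14 of 21887 protein-coding genes (0.064%) in at least 8. The others were Snhg15 and Gm31068, each in 9 libraries with no protein-coding gene end at the same peak, Snhg17, in the same 8 libraries as Pvt1, and C130036L24Rik and Gm36118, whose peaks were shared with the ends of Ncl and Pde4a. Snhg15 and Snhg17 are host genes of small nucleolar RNAs. Their folds ran from 5.07 to 26.4 and from 4.88 to 19.7, wider ranges than the 6.14 to 16.2 of Pvt1. No protein-coding gene end shared the Pvt1 peak.

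The 25 regions listed in all 8 of these libraries allow a comparison over the same regions in each library. Which regions these are still depends on list length, since each must be in the shortest list (WT replicate 1, 92 peaks). Among the 25 regions the Pvt1 region took place 16 and 12 by fold in Homo replicates 1 and 3. It took places 19, 25 and 13 in Het replicates 1, 2 and 3, and places 11, 16 and 18 in WT replicates 1, 2 and 3. It was thus a middle to lower member of the set, and the lowest of all 25 in Het replicate 2. Its enrichment divided by the median of the set was 0.954 and 1.02 in Homo, 0.882, 0.688 and 0.841 in Het, and 0.800, 0.860 and 0.826 in WT, each in replicate order. Both Homo ratios exceeded every Het and WT ratio, as they did in 5 of the 25 regions (20%), Pvt1 included. In 1 region (4%) both were below. With the authors' fold in place of the enrichment the ratios were 0.902 and 1.01 in Homo, 0.645, 0.376 and 1 in Het, and 1.11, 0.863 and 0.888 in WT, and the genotypes overlapped. Of these 25 regions, 8 lay at a protein-coding gene end, 4 at the end of other genes only, and 13 at no annotated gene end.

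**Figure D5:**
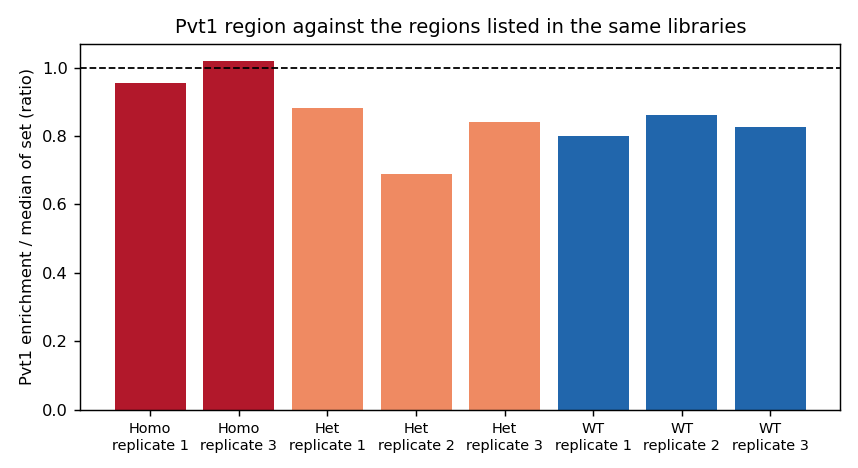
Enrichment at the Pvt1 summit divided by the median enrichment of the 25 regions listed in the same 8 libraries, by library (bars; dashed line, ratio of 1). The 2 Homo bars (0.954 and 1.02) stand above the Het and WT bars (0.688 to 0.882), an order that the authors' fold did not give. Homo replicate 2 has no listed peak and so no bar.

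Exactly the same 8 libraries were shared by 9 regions (0.188% of 4775), Pvt1 included, and 5 of the other 8 lay at protein-coding gene ends. The other 3, Snhg17 among them, were not ranked. The likeness of the 5 to Pvt1 was measured as the mean absolute difference, over the 8 libraries, in the percentage of the list that each exceeded by fold. The nearest of the 5 was Srm, which encodes spermidine synthase (18.6 points; chromosome 4, 148591117 to 148592139), with an enrichment of 26.6-fold to 50.3-fold. The shared peak of Ccdc146 and Fam185a followed (23.3 points), then that of D17H6S56E-5 and Vars, a valyl-tRNA synthetase gene (23.6 points), Xpot, which encodes a tRNA exporter (24.997 points), and Pdia5, of the protein disulfide isomerase family (35.1 points). Even the nearest differed from Pvt1 by 18.6 points on average, so none had a closely matching rank in every list.

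The Pvt1 region was chosen on the presence of peaks, so nothing is read from a contrast of its recurrence with that of other genes. None of Myc, its paralogues and their partners had a peak in as many libraries. Of 14 such genes, 7 had a peak within 1 kb of an end in at least 1 library, beside 14.9% of all protein-coding genes, and Myc, Mycn and Mycl had none. All 7 were listed in WT replicate 3, the longest list, and without it 4 remained with a peak elsewhere. Mga, which encodes a MAX-binding transcription factor, had a peak in 1 Homo, 2 Het and 2 WT libraries (folds 4.98 to 10.6). Max itself, the obligate MYC partner, had one in 0 Homo libraries, Het replicate 2 (fold 7.22) and WT replicate 3 (fold 4.97). Mnt, which encodes a MAX partner that opposes MYC, and Mlxip, of the MLX branch of the network, likewise had one in 0 Homo, 1 Het and 1 WT library. Mxd3, Mxd4 and Mlxipl had one in WT replicate 3 alone. Of the loci named by the transgenes and the genotype, Cebpb had a peak in 0 Homo, 2 Het and 2 WT libraries, Arid1a in 0, 1 and 1, and Alb in none. The tissue label cannot be checked from MYC peaks, which do not measure expression. Of 6 hepatocyte loci, 2 had an end peak, Apoa1 in WT replicate 3 alone and Cebpa in 1 Het and 1 WT library, and of 4 loci of other cell types (Ptprc, Cd68, Pecam1 and Krt19) 0 had one. The share over all protein-coding genes was 14.9%, and nothing is read from lists this short.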

How the data were processed

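The series holds 18 samples, and the peak lists of its 9 MYC libraries were analysed. The submitters' processing notes name mm10 as the build and, as tools, MACS2 2.0.10.20131216, Bowtie2 2.2.3, HOMER and Picard; for the peak threshold, the sources used here give none. Peaks were called per library. The deposited lists give the authors' fold (a ratio at the summit), −log10 p, −log10 q and summit offset. The deposited score is 10 times the −log10 q without decimals and adds nothing.

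Gene spans were taken from RefSeq on GRCm38.p6, which underlies mm10. Peaks overlapping by at least 1 bp were merged, and gene ends were read within 1 kb. Fold and p were solved for summit reads (Python 3.11.15, scipy 1.17.1), taking the fold as scaled reads plus 1 over background plus 1 and p as a Poisson upper tail, with reads within 0.02 of a whole number. In 97.6% of peaks exactly 1 solution was found (86.3% in Homo replicate 2), and the others were left out of read-based values. The solver was tested on data simulated with the same formulas, where 100% of the peaks with 1 solution were solved rightly. Such a test cannot check whether the formulas hold for the deposited lists. Enrichment is summit reads times the library's scaling ratio, over the lowest background in its list.

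The window, gene lists and alternatives were chosen with earlier results of these data known. Genes were named by 1 rule: those in the window, those of the lists with a peak, and up to 5 regions at protein-coding gene ends in the same libraries, of which just 5 existed; recurrent noncoding genes were added after their values were seen. No test was run on values that chose the members, and 3 libraries against 3 could not give an exact permutation p below 0.1. The spread between libraries of a genotype may be technical.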

Additional observations from a re-analysis of the deposited data

How the results depend on the processing

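The Pvt1 region stayed the 1 region of the window under each of the settings run, and the peak count stayed at 8 with lower limits of 5 on −log10 q, 5 on fold or 10 on −log10 p, placement by any overlap, and flanks of 50 or 200 kb. It was 7 to 8 with 1 library left out, with 1 to 2 Homo, 2 to 3 Het and 2 to 3 WT libraries. When each list was limited to its 51 highest folds the window kept 3 peaks, in 2 Homo, 0 Het and 1 WT library (0 peaks per Mb in Het and 0.702 in WT, beside 0.0187 over all chromosomes), and with the 51 highest −log10 p it kept 4, again 0 in Het. Such limits remove most of the long lists by construction. The window held 1.40 peaks per Mb in Homo and 2.11 in Het and WT, beside 0.0571, 0.485 and 0.729 over all chromosomes in Homo, Het and WT (means over libraries). With 50 kb flanks it held 1.78 in Homo and 2.67 in Het and WT, and with 200 kb flanks 0.988 and 1.48. No library had more than 1 peak in the window, so its densities follow from presence and window width. The window was chosen with these lists known, and nothing is read from the densities.

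With 1 library left out, regions in at least 2 libraries of one genotype and none of the other numbered 0 to 0 (Homo, not WT), 29 to 1242 (WT, not Homo), 0 to 1 (Homo, not Het), 131 to 1049 (Het, not Homo), 0 to 297 (Het, not WT) and 0 to 361 (WT, not Het). List members with a peak ranged from 4 to 7 for the MYC family and partners and from 1 to 2 for hepatocyte loci, and with −log10 p of at least 10, chosen after seeing the data, 1 transgene or genotype locus and 1 hepatocyte locus remained. The planned E-box counts were not run. No paired analysis was possible because the results come from no test. By calculation, between 23 and 54 summit reads would have matched the weakest listed peak of Homo replicate 2 by p, depending on the background assumed. Fewer may have sufficed for a listing, since the peak threshold is not known. The estimated MYC reads per kb were 8.60 in Homo replicate 2, beside 7.80 and 8.29 in Het replicates 2 and 3, which list the peak. This order depends on the width of the shortest peak used in the estimate (173 bp beside 199 and 199 bp). Whether depth is tied to the missing peak was not tested.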
